A study of Bos taurus with 8 samples.

Results

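The insulin-like growth factor (IGF) axis was followed through 9 listed genes: the ligands IGF1 and IGF2, the receptors IGF1R and IGF2R, and the binding proteins IGFBP2, IGFBP3, IGFBP4, IGFBP5 and IGFBP6. A gene was represented by an array probe whose RefSeq transcript accession belongs to it and that was above background in at least 4 of 16 channel readings. For 6 of the 9 genes such a probe was found, out of 6642 named genes with a kept probe: IGF2 (probe A_73_104925, NM_174087), IGF2R (A_73_118894, NM_174352), IGFBP2 (A_73_103681, NM_174555), IGFBP3 (A_73_120953, NM_174556), IGFBP4 (A_73_116582, NM_174557) and IGFBP6 (A_73_119197, NM_001040495). No probe accession matched IGF1, IGF1R or IGFBP5, which were not analysed here. Each measured gene had 1 probe, printed 2 times on the array.

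IGF1 and IGF2 are secreted peptides that drive growth of muscle and other tissues through IGF1R, a receptor tyrosine kinase that signals to AKT and mTOR and to the MAPK cascade. IGF2R, also the cation-independent mannose-6-phosphate receptor, takes IGF2 into the cell for degradation and carries lysosomal enzymes. The IGF-binding proteins hold the ligands in the circulation and in tissue fluid and set how much of them reaches the receptor. IGF2 and IGFBP5 are known for their part in myoblast differentiation.

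The series compared skeletal muscle of 2 breeds described as giving well-marbled beef, Hereford and Holstein-Friesian, with that of Limousin, described as giving lean beef. Total RNA came from m. semitendinosus, a hindlimb muscle, of 12 bulls aged 15 months, 4 of each breed, with no treatment named in the labels. It was hybridised to 8 bovine 2-colour Agilent arrays, each carrying 1 bull of a marbled breed and 1 Limousin bull. Hereford RNA was always labelled with the dye Cy5 and compared with Limousin in Cy3 on 1 slide. Holstein-Friesian RNA was always in Cy3 and compared with Limousin in Cy5 on the other slide. The same 4 Limousin bulls were used on both slides, so both breeds' ratios share their Limousin animals. Breed, dye and slide cannot be told apart from the arrays of 1 breed alone, and only the number of arrays sets the precision.

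The median signal above local background was 97.25 to 139.75 intensity units for Hereford in Cy5, 63.5 to 88 for Limousin in Cy3, 97 to 117.5 for Limousin in Cy5 and 30.5 to 46.75 for Holstein-Friesian in Cy3. The Holstein-Friesian channel was thus the dimmest of the 4. Of the muscle fibre markers, 7 of 10 were measured, and their summed level was 830366 to 868384 in Hereford, 575346 to 790893 in Limousin and 650278 to 905774 in Holstein-Friesian. The Hereford sums thus lay wholly above the Limousin ones. Of these markers MYH7, the slow myosin heavy chain, rose in Hereford by 1.18 log2 units (limma adjusted p of 0.047) and in both breeds together by 1.12 (limma adjusted p of 0.0458). MB, myoglobin, fell in Holstein-Friesian by 1.02 log2 units (limma adjusted p of 0.0167). It was higher in Hereford than in Holstein-Friesian by 1.43 (limma adjusted p of 0.0341). In each comparison 1 of the 7 was called. Over all probes the shares called were 7.14% in Hereford, 6.45% in Holstein-Friesian, 0.598% in both together and 2.71% in the difference. The list's median log2 ratio was 0.26 in Hereford and 0.38 in Holstein-Friesian, where 4 of 7 were higher and 3 lower. The part of fibre content in the results below was not tested. After within-array loess normalisation, 47.5% of the probes called for Hereford were higher than in Limousin, and after median centring alone 87%. For Holstein-Friesian those shares were 46.5% and 29%, for the marbled breeds together 53.9% and 23.1%, and for the difference between breeds 57.5% and 78.1%.

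With loess normalisation, IGFBP3 was the only member that passed the test, in Hereford and in the difference between the breeds. Its level was lower in Hereford than in Limousin muscle on all 4 arrays, by 1.75-fold on average. In Holstein-Friesian it was higher on all 4 arrays without passing the test. Dye and slide cannot be told apart from breed here. Within 1 dye neither result passed (limma adjusted p of 0.1 in Hereford and 0.0872 for the difference). IGF2R was lower on all 4 Hereford arrays, with an adjusted p of 0.0749 by limma. IGF2, IGFBP4 and IGFBP6 varied widely between bulls and did not pass, and IGFBP2 lay near background. Each value below is a log2 ratio of breed over Limousin on 1 array, so that 1 unit is a 2-fold difference. Tests were made with limma over 17061 probes, and a gene was called when its p, adjusted by the Benjamini-Hochberg method, was under 0.05.

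In the Hereford comparison, 1 of the 6 measured members was called, against 7.14% of all probes. At an unadjusted p under 0.05 there were 3, against 24.2% of all probes. In the Holstein-Friesian comparison 0 of 6 were called by limma (6.45% of all probes), with 1 at an unadjusted p under 0.05 (23.5% of all probes). For both breeds together 0 of 6 were called by limma (0.598% of all probes), with 1 at an unadjusted p under 0.05 (19.6% of all probes). In the difference between the breeds 1 of 6 was called (2.71% of all probes), and the same number had an unadjusted p under 0.05 (21.1% of all probes). With only 6 genes, such counts cannot be told apart from the shares over all probes, and no test of this was made. The median log2 ratio of the members was -0.14 in Hereford and 0.05 in Holstein-Friesian, beside 0.01 and -0.01 over all probes.

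**Figure D1:**
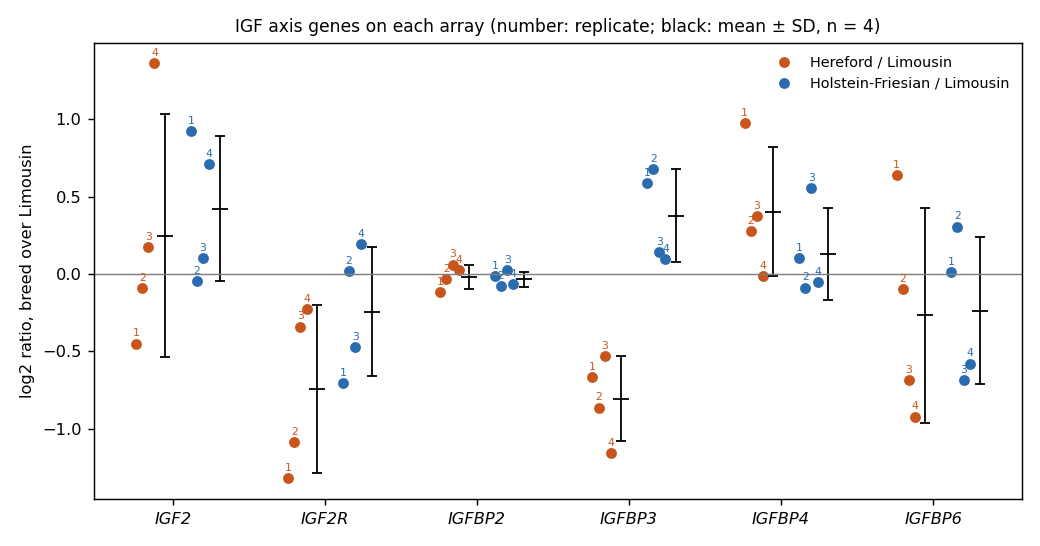
Log2 ratio of breed over Limousin (vertical axis) for the 6 measured genes on each array, Hereford in orange and Holstein-Friesian in blue, with the replicate number beside each point and the mean ± SD of 4 arrays in black. IGFBP3 is below 0 on all 4 Hereford arrays and above 0 on all 4 Holstein-Friesian arrays.

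IGF2, the fetal and postnatal growth ligand, differed strongly between single bulls. Its Hereford log2 ratios were -0.45, -0.09, 0.17 and 1.36 in replicates 1 to 4. Its Holstein-Friesian log2 ratios were 0.92, -0.05, 0.10 and 0.71. The groups overlapped, and the highest value of all came from Hereford replicate 4. The mean was 0.25 ± 0.78 (SD, n = 4) in Hereford, with a limma adjusted p of 0.669. It was 0.42 ± 0.47 (SD, n = 4) in Holstein-Friesian, with a limma adjusted p of 0.419. The 95% confidence intervals, -0.40 to 0.90 and -0.23 to 1.07, leave room for differences of either sign. Without Hereford replicate 4 the Hereford mean was -0.12, so that 1 array set its sign. Among the Limousin bulls, each taken as the mean of its readings in both dyes, IGF2 spanned 0.72 log2 units. It was highest in bull 2 and lowest in bull 4, the Limousin partner in replicate 4 of both breeds.

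IGF2R, which clears IGF2 from the cell surface, had ratios below 0 on every Hereford array but did not pass the test. Its Hereford log2 ratios were -1.32, -1.09, -0.34 and -0.23 in replicates 1 to 4. Its Holstein-Friesian log2 ratios were -0.71, 0.02, -0.48 and 0.19. All 4 Hereford values lay below 0, while the Holstein-Friesian values fell on both sides of it and overlapped the Hereford ones. The Hereford mean was -0.74 ± 0.54 (SD, n = 4; 95% interval -1.23 to -0.25), 1.67-fold lower than in Limousin, with a limma adjusted p of 0.0749. The Holstein-Friesian mean was -0.24 ± 0.42 (SD, n = 4), with a limma adjusted p of 0.548. For both breeds together, both ratios of each Limousin bull were averaged, and 4 of 4 averages lay below 0, from -1.01 to -0.02. Their mean was -0.49 ± 0.41 (SD, n = 4), with a limma adjusted p of 0.208.

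The same Limousin bulls were read in both dyes, which allows Hereford to be set against their Cy5 readings on the other slide. A slide effect can enter such values. In that same-dye comparison the IGF2R log2 differences for Hereford were -1.08, -1.30, -0.67 and -0.55. Their mean was -0.90 ± 0.35 (SD, n = 4), with a limma adjusted p of 0.0477. The difference between the breeds' IGF2R ratios was -0.50 ± 0.51 (SD, n = 4; 95% interval -1.19 to 0.19), with a limma adjusted p of 0.389. IGF2R was therefore not shown to differ between Hereford and Holstein-Friesian. The IGF2R values moved with the scaling. With median centring in place of loess the Hereford mean was -0.50 (limma adjusted p of 0.293), while Holstein-Friesian at -0.88 and both breeds together at -0.69 were called (limma adjusted p of 0.0282 and 0.049).

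IGFBP3, the main carrier of IGFs in the circulation, gave the clearest separation. Its Hereford log2 ratios were -0.67, -0.86, -0.53 and -1.16 in replicates 1 to 4. Its Holstein-Friesian log2 ratios were 0.59, 0.68, 0.14 and 0.09. All Hereford values lay below 0 and all Holstein-Friesian values above it. It was the only one of the 6 members whose ratios in the 2 breeds did not overlap, which 14% of all probes also showed. Ratios wholly on opposite sides of 0 were seen for 4.11% of all probes.

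The mean IGFBP3 log2 ratio in Hereford was -0.81 ± 0.27 (SD, n = 4; 95% interval -1.11 to -0.50), with a limma adjusted p of 0.0165, and 2.3% of all probes had a larger difference in size. In Holstein-Friesian it was 0.38 ± 0.30 (SD, n = 4; 95% interval 0.07 to 0.68), with a limma adjusted p of 0.134. The difference between the breeds was -1.18 (95% interval -1.61 to -0.75), or 2.27-fold lower in Hereford, with a limma adjusted p of 0.0262. The SD of the differences paired by replicate number was 0.36 (n = 4), while the interval and p come from unpaired breed means. Dye cannot be told apart from breed in this difference. For both breeds together the mean was -0.22 ± 0.22 (SD, n = 4), with a limma adjusted p of 0.317. The opposite ratios of the breeds thus largely offset each other in the joint mean.

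The IGFBP3 call in Hereford depended on single arrays. The limma adjusted p was 0.0889 without replicate 2 of both breeds and 0.0858 without replicate 4. It was 0.0597 without the array of Hereford replicate 2 alone and 0.0586 without that of Hereford replicate 4, while the mean log2 ratio stayed between -0.90 and -0.69 whichever array was left out. The call for the difference between breeds was lost without any 1 of the 4 replicate numbers, with limma adjusted p of 0.0546 to 0.157 and differences of -1.35 to -1.06. It was also lost without the single arrays of Hereford replicate 2 or 4 or of Holstein-Friesian replicate 2, 3 or 4 (limma adjusted p of 0.0616 to 0.0703).

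**Figure D2:**
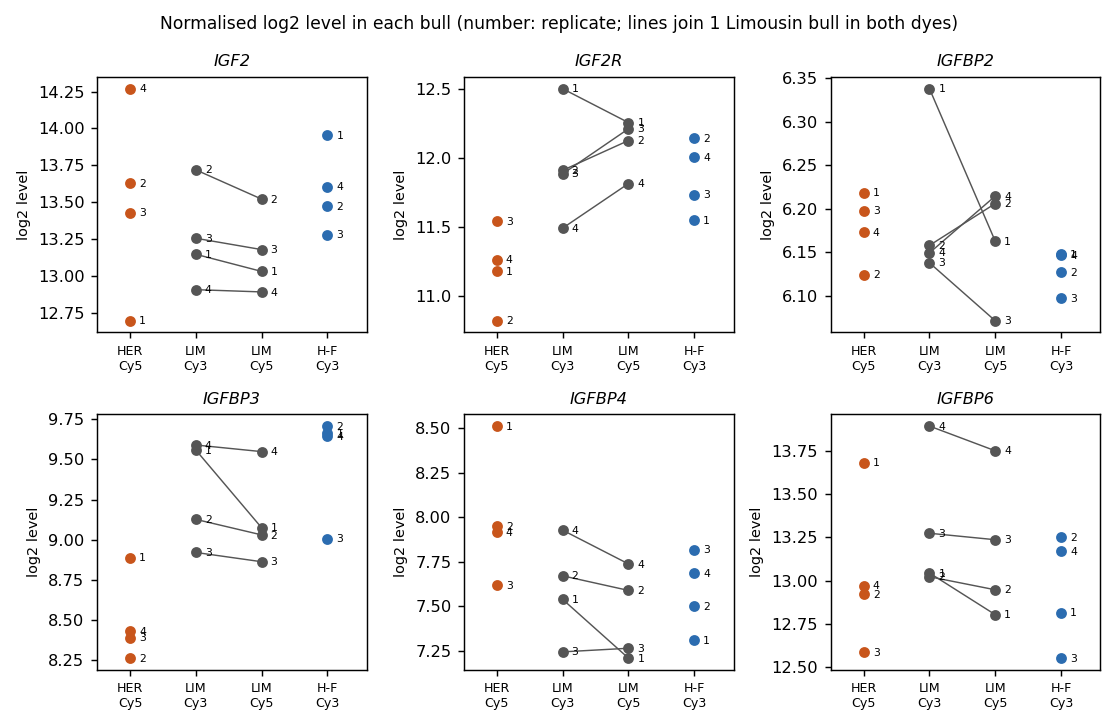
Normalised log2 level (vertical axis, own scale for each gene) in each bull, with Hereford in Cy5, the same 4 Limousin bulls in Cy3 and in Cy5 joined by lines, and Holstein-Friesian in Cy3; numbers are replicates. For IGFBP3 the Hereford mean of 8.49 is below the Limousin means of 9.30 (Cy3) and 9.13 (Cy5), and IGFBP2 spans a narrow range near background.

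On the scale of single-channel log2 levels, normalised between arrays, IGFBP3 stood at 8.89, 8.26, 8.39 and 8.43 in the Hereford bulls. It stood at 9.56, 9.13, 8.92 and 9.59 in the Limousin bulls in Cy3 and at 9.08, 9.03, 8.86 and 9.55 in the same bulls in Cy5. In the Holstein-Friesian bulls it was 9.66, 9.71, 9.01 and 9.64. Hereford replicate 1 overlapped the lowest Limousin reading, and the other 3 Hereford bulls lay below every Limousin reading. The Holstein-Friesian and Limousin levels overlapped.

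Within 1 dye, where bulls are compared across slides, the IGFBP3 separation was smaller. A slide effect enters such values and cannot be told apart from breed in them. The Limousin bulls read lower in Cy5 than in Cy3 on 4 of 4 pairs, by 0.04 to 0.48 log2 units, with a mean log2 difference of -0.17 and a limma adjusted p of 0.286. Over all 6 members 0 were called by limma in this check of dye and slide together, against 4.4% of all probes. At an unadjusted p under 0.05 there were also 0, against 24.4% of all probes. Set against Limousin in the same dye, IGFBP3 in Hereford was -0.19, -0.77, -0.47 and -1.12, again below 0 in all 4 bulls. The mean of -0.64 ± 0.40 (SD, n = 4) had a limma adjusted p of 0.1 and was not called. For Holstein-Friesian the same-dye mean was 0.21 ± 0.25 (SD, n = 4), with a limma adjusted p of 0.389. The same-dye difference between the breeds was -0.84 ± 0.50 (SD, n = 4), with a limma adjusted p of 0.0872. With median centring in place of loess, the Hereford mean was -0.59 (limma adjusted p of 0.137), the Holstein-Friesian mean turned to -0.12 and the difference was -0.47 (limma adjusted p of 0.191).

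**Figure D3:**
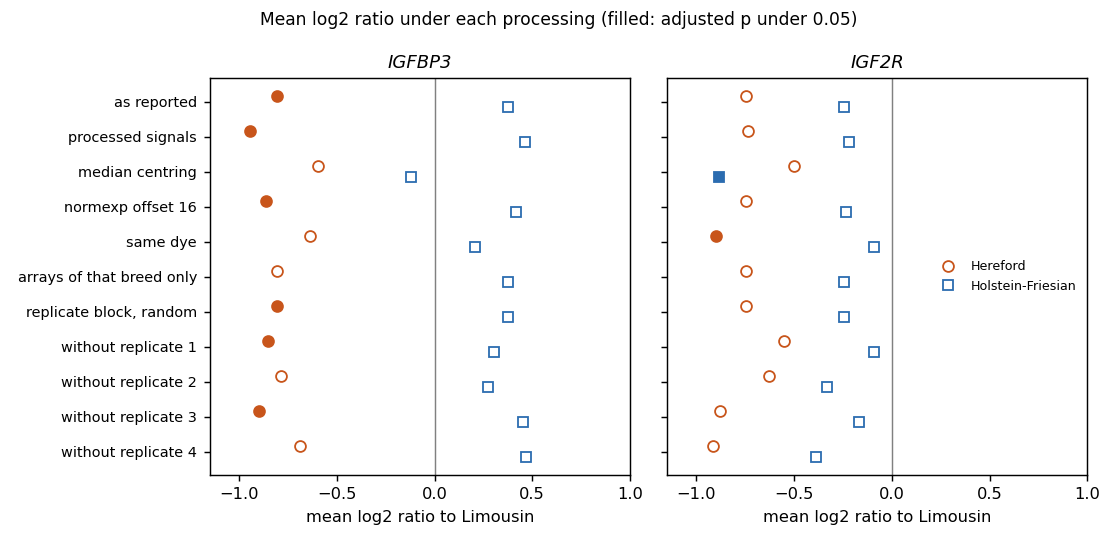
Mean log2 ratio to Limousin (horizontal axis) of IGFBP3 and IGF2R in Hereford (orange circles) and Holstein-Friesian (blue squares) under each processing named on the vertical axis; filled symbols have a limma adjusted p under 0.05. IGFBP3 in Hereford stays below 0 throughout, between -0.94 and -0.59, and it is called in 6 of the 11 settings shown.

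IGFBP4, a binding protein that mostly holds IGFs back from their receptor, was higher in most Hereford bulls. Its Hereford log2 ratios were 0.97, 0.28, 0.37 and -0.01 in replicates 1 to 4. Its Holstein-Friesian log2 ratios were 0.10, -0.09, 0.55 and -0.05. The ranges overlapped, and Hereford replicate 1 stood highest. The Hereford mean of 0.40 ± 0.41 (SD, n = 4; 95% interval 0.03 to 0.77) had a limma adjusted p of 0.173. The Holstein-Friesian mean of 0.13 ± 0.29 (SD, n = 4) had a limma adjusted p of 0.693 and changed sign, to -0.01, without Holstein-Friesian replicate 3. Compared within Cy5, the Hereford values were 1.30, 0.36, 0.35 and 0.18, all above 0, with a limma adjusted p of 0.189. With median centring the IGFBP4 difference between the breeds was 0.67 and was called (limma adjusted p of 0.0431), against 0.28 with loess (limma adjusted p of 0.54).

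IGFBP6, which binds IGF2 in preference to IGF1, varied most between bulls of the binding proteins. Its Hereford log2 ratios were 0.64, -0.10, -0.69 and -0.92 in replicates 1 to 4. Its Holstein-Friesian log2 ratios were 0.01, 0.31, -0.69 and -0.58. In both breeds replicates 3 and 4 were the low ones, and the same 2 Limousin bulls had the highest IGFBP6 levels of the 4. The Limousin bulls alone spanned 0.90 log2 units, from bull 1 at 12.92 to bull 4 at 13.82. The mean was -0.27 ± 0.70 (SD, n = 4; limma adjusted p of 0.607) in Hereford and -0.24 ± 0.47 (SD, n = 4; limma adjusted p of 0.645) in Holstein-Friesian. With median centring the Holstein-Friesian mean was -0.89 and was called (limma adjusted p of 0.0415), and the Hereford mean turned to 0.061 (limma adjusted p of 0.914). The difference between the breeds was -0.03 (95% interval -0.88 to 0.82), which leaves room for a sizeable difference in either direction.

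IGFBP2, a binding protein abundant in fetal tissues, was barely detected in this muscle. Its probe was well above background in 1 of 4 Hereford, 0 of 4 Holstein-Friesian and 3 of 8 Limousin readings, with signals above local background of 3.5 to 27.25 intensity units. The Hereford log2 ratios were -0.12, -0.03, 0.06 and 0.02, and the Holstein-Friesian ones -0.01, -0.08, 0.03 and -0.07. An offset added to both channels draws ratios of dim probes towards 0. At a smaller offset of 16, the Hereford mean was -0.030 and the Holstein-Friesian mean -0.070 (limma adjusted p of 0.89 and 0.693). The scanner's processed signals, which carry no offset, gave -0.27 in Hereford and -0.70 in Holstein-Friesian (limma adjusted p of 0.555 and 0.0799). Those signals come from the scanner's own processing, so the part of the offset in this shift was not tested. With median centring the Holstein-Friesian mean turned to 0.40 and the difference between the breeds to -0.58, both called (limma adjusted p of 0.0373 and 0.0372). With no Holstein-Friesian reading well above background, no fold is given.

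**Figure D4:**
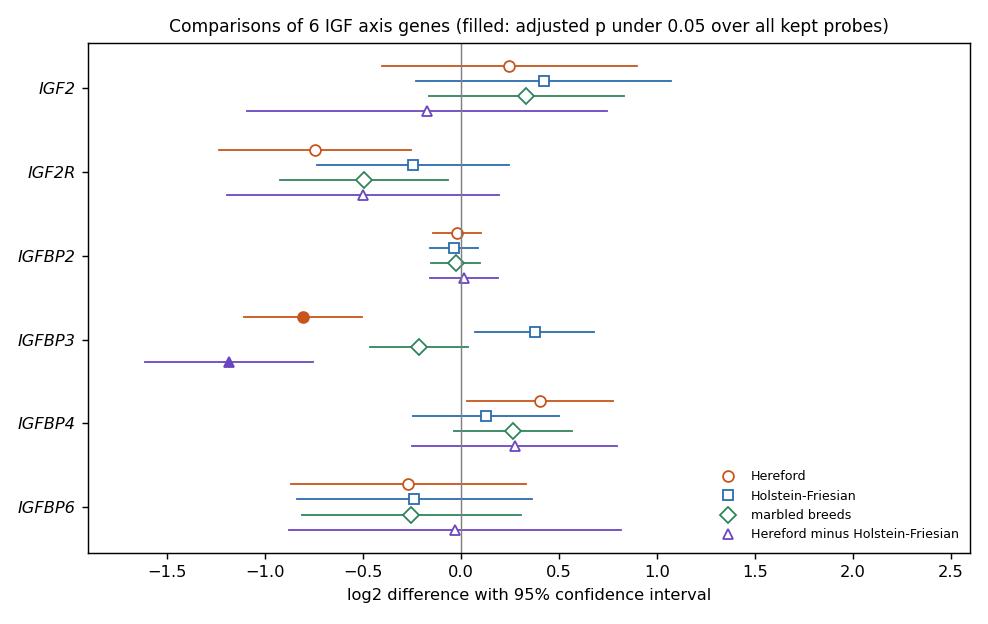
Mean log2 difference with its 95% confidence interval (horizontal axis) for each gene in 4 comparisons: Hereford over Limousin, Holstein-Friesian over Limousin, both marbled breeds over Limousin, and Hereford minus Holstein-Friesian; filled symbols have a limma adjusted p under 0.05. Only the IGFBP3 intervals for Hereford (-1.11 to -0.50) and for the difference between breeds (-1.61 to -0.75) belong to called results.

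The median absolute log2 difference between the 2 spots of a probe on 1 array was 0.03 to 0.11 over the 6 members, with the largest single difference, 0.25, in IGFBP2. For IGFBP3 the median was 0.06 and the maximum 0.11. For IGFBP2 the repeat spots lay further apart than its SD between arrays, 0.08 in Hereford and 0.05 in Holstein-Friesian. Repeat spots share labelling and hybridisation, so they do not measure the error between arrays.

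After taking off each breed's mean, the 3 named genes whose 8 log2 ratios ran most like those of IGFBP3 were LAMB3, a laminin chain of basement membranes, NCAPD3, a condensin subunit, and HAGHL. Their Pearson correlations with IGFBP3 were 0.956, 0.951 and 0.939 among 6641 genes. These are the highest of many values over 8 arrays that share Limousin bulls and are given as a description. LAMB3 had a mean log2 ratio of -0.87 in Hereford and -0.23 in Holstein-Friesian.

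In the RefSeq annotation of the cattle assembly ARS-UCD2.0, several members lie next to relatives. IGFBP3 neighbours IGFBP1, IGFBP2 neighbours IGFBP5, and IGF2 follows INS, the insulin gene. Of these neighbours, IGFBP1 and IGFBP5 had no kept probe.

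Of the wider pathway, 1 of 14 other IGF axis genes was measured: IGF2BP3, an RNA-binding protein that binds IGF2 mRNA, with a log2 ratio near 0 in both breeds (-0.0028 and -0.0072). It was not called by limma in any of the 4 comparisons, nor did it reach an unadjusted p under 0.05. IGFALS, PAPPA and INSR, the partners of IGFBP3 and IGFBP4 and the insulin receptor, were among the genes not measured.

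Of the growth hormone axis, which drives IGF1 production, 6 of 10 genes were measured. In Holstein-Friesian 1 of 6 rose, beside 6.45% of all probes called there in either direction. It was SOCS2, a feedback inhibitor of growth hormone signalling, higher by 1.30 ± 0.56 log2 units (SD, n = 4; limma adjusted p of 0.0492). In Hereford 0 of 6 were called by limma (7.14% of all probes), with 1 at an unadjusted p under 0.05 (24.2% of all probes). That gene was STAT5B, the transcription factor that carries the growth hormone signal to IGF1, named after its value was seen, with a mean log2 ratio of -0.77 ± 0.49 (SD, n = 4) and a limma adjusted p of 0.0541. The list's median log2 ratio was 0.10 in Hereford and 0.19 in Holstein-Friesian.

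Of the genes that carry the signal to AKT and mTOR, 9 of 24 were measured. In Hereford 1 of 9 rose, beside 7.14% of all probes called there in either direction. It was PIK3CA, the catalytic subunit of phosphoinositide 3-kinase, higher by 0.63 ± 0.38 log2 units (SD, n = 4; limma adjusted p of 0.0292). In Holstein-Friesian 1 of 9 fell, beside 6.45% of all probes called. It was GSK3B, a kinase that AKT inhibits, with a mean of -0.40 ± 0.11 (SD, n = 4; limma adjusted p of 0.0123). GSK3B also differed between the breeds, by 0.52 log2 units (limma adjusted p of 0.0315), where 2.71% of all probes were called. That call was lost with the replicate number as a fixed block (limma adjusted p of 0.0537). The list's median log2 ratio was -0.09 in Hereford and -0.01 in Holstein-Friesian.

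Of the MAPK signalling genes, 7 of 14 were measured. Beside 7.14% of all probes called in Hereford in either direction, 2 of 7 fell there. They were SHC1, an adaptor that links receptors to RAS, with a mean log2 ratio of -0.54 ± 0.39 (SD, n = 4; limma adjusted p of 0.044; lower on 3 of 4 arrays), and GAB1, a docking protein, at -0.48 ± 0.26 (SD, n = 4; limma adjusted p of 0.0357). GAB1 was higher in Holstein-Friesian on all 4 arrays, at 0.38 ± 0.18 (SD, n = 4; limma adjusted p of 0.0707). Its difference between the breeds was -0.86 (limma adjusted p of 0.0341), where 2.71% of all probes were called. With the replicate number as a random block SHC1 lost its call (limma adjusted p of 0.0542). The list's median log2 ratio was -0.19 in Hereford and -0.03 in Holstein-Friesian.

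These 7 pathway calls depended on single replicates and on the processing. All 7 were lost without replicate 2, without replicate 3 and without replicate 4, with limma adjusted p of 0.0635 to 0.224, and 1 of 7, GAB1 in Hereford, without replicate 1. The mean differences without replicate 2, 3 or 4 stayed close to the full ones: 0.52 to 0.65 for PIK3CA, -0.51 to -0.45 for SHC1, -0.56 to -0.49 for GAB1 in Hereford, 1.07 to 1.49 for SOCS2 and -0.41 to -0.37 for GSK3B in Holstein-Friesian. For the differences between breeds they were 0.46 to 0.55 for GSK3B and -0.94 to -0.83 for GAB1. All 7 were lost in the same-dye comparison, with limma adjusted p of 0.0545 to 0.363, where the SHC1 mean shrank to -0.20. With median centring 5 of 7 were lost: PIK3CA stood at 0.85 (limma adjusted p of 0.0523), SOCS2 stood at 0.80, SHC1 at -0.33, GAB1 at -0.26 in Hereford and the GAB1 difference at -0.09, while the GSK3B values grew to -0.69 and 1.03.

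Markers of macrophages ran the same way as IGFBP3 in both breeds. Of 6 listed, 3 were measured (CD68, CD14 and C1QA), and 3 of 3 had a mean below 0 in Hereford (median log2 ratio -0.34) and above 0 in Holstein-Friesian (median 0.49). None of the 3 was called by limma in either breed or in the difference between them. At an unadjusted p under 0.05 there were 2 in Hereford, 2 in Holstein-Friesian and 3 in the difference. Over all probes those shares were 24.2%, 23.5% and 21.1%. The summed level of the macrophage markers was 1419 to 2626 in Hereford, 1623 to 4240 in Limousin and 2928 to 8898 in Holstein-Friesian. Of 8 stroma markers 7 were measured, with a median log2 ratio of 0.10 in Hereford and -0.66 in Holstein-Friesian, where COL3A1 fell by 2.53 log2 units (limma adjusted p of 0.0125). The summed stroma level was 34324 to 56254 in Hereford, 30905 to 56110 in Limousin and 16351 to 33115 in Holstein-Friesian. Of 7 adipocyte markers 6 were measured, with a median log2 ratio of 0.05 in Hereford and -0.14 in Holstein-Friesian. In Hereford limma called 0 of 6 (7.14% of all probes), and 0 had an unadjusted p under 0.05 (24.2% of all probes). In Holstein-Friesian 4 of 6 means lay below 0, and limma called 1 of 6 (6.45% of all probes). It was CFD (adipsin), which rose by 1.17 log2 units (limma adjusted p of 0.0166). CFD stood at -0.41 in Hereford (limma adjusted p of 0.26). Its difference between the breeds, -1.58, was called (limma adjusted p of 0.0349), where 2.71% of all probes were called. The summed level of the adipocyte markers was 1584 to 5058 in Hereford, 1701 to 3368 in Limousin and 3048 to 4814 in Holstein-Friesian. Of 6 endothelial markers 3 were measured, with a median log2 ratio of 0.04 in both breeds. Of 5 smooth muscle and pericyte markers all were measured, and 2 rose in Hereford, where 7.14% of all probes were called in either direction. The 2 were CNN1, by 1.09 log2 units (limma adjusted p of 0.0254), and RGS5, by 0.77 (limma adjusted p of 0.00816). That list's median log2 ratio was 0.19 in both breeds, with 1 of 5 means below 0 in Hereford. For 3 measured satellite cell markers the medians were 0.04 in Hereford and -0.22 in Holstein-Friesian. They were 0.11 and 0.12 for 2 blood markers, and 0.20 and 0.60 for 3 nerve and Schwann cell markers. The part of these cells in the IGFBP3 result was not tested. In bulk muscle, fewer cells of a type and less RNA per cell cannot be told apart.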

How the data were processed

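Total RNA of 12 bulls was measured on 8 2-colour Agilent arrays read out by Agilent Feature Extraction (10.7.3.1), as the submitters' processing notes name it. Spot and background brightness were deposited as intensity per the file headers, as medians over pixels; the plan named mean signals, so medians were used instead. The authors deposited values on a log10 scale, Cy5 over Cy3, that matched the scanner log ratio in 44407 of 44407 spots on every array within 1e-06. All value columns were mapped (0 left), and the scanner's flags for spots above background or outlying were used, per the file headers.

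Background was corrected with normexp (offset 50) and arrays with loess (span 0.3). Control and outlier spots (68 to 124 per array) were left out, spots of a probe averaged, and 17061 of 21475 probes kept when at least 4 of 16 readings were above background (a share of 0.5 of the spots). Accessions were named through a RefSeq table of ARS-UCD2.0; the array annotation follows another build, so no coordinates are given. Breed means were fitted over 8 arrays with lmFit and eBayes in limma 3.58.1 (R 4.3.3, statmod 1.5.0, data.table in version 1.17.8, jsonlite 2.0.0; plots with matplotlib 3.10.9), two-sided, with intervals at 95%. The joint comparison averaged both ratios of a Limousin bull, which cancels a shared dye effect. In the difference between the breeds the dye effect adds up. The SD given with that difference is over values paired by replicate number, while its interval and p come from unpaired breed means. Scripts were tested on simulated data.

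Replicate numbers mark the Limousin bull named in the labels; same-numbered arrays deviated together with correlations of 0.415, 0.273, 0.5 and 0.0987. Members, lists and tests were chosen with earlier results of these data known. Named genes are all members, pathway genes that passed (at most 4 per list and comparison), the 3 genes most like a called member, and markers. The bulls of a breed were taken as separate animals per the labels.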

Additional observations from a re-analysis of the deposited data

Results flagged for a closer look

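The IGFBP3 ratio to Limousin differed between the breeds, by -1.18 log2 units for Hereford minus Holstein-Friesian (SD 0.36, n = 4, lower in Hereford for 4 of 4 replicate numbers; limma adjusted p of 0.0262). Every Hereford array was below 0 and every Holstein-Friesian array above it. A dye effect adds up in this difference. In the same-dye comparison, which crosses slides, the difference was -0.84, with a limma adjusted p of 0.0872. None of the 12 groups of 4 ratios held a value far enough from the others to stand out.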

How the results depend on the processing

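Over the members, 452 values were recomputed under the alternatives: 399 kept direction and side of the threshold, 18 lost the call, 5 gained it in the same direction and 30 changed sign, 2 of them with a call (IGFBP2), so that 7 values gained a call in all. Most of the 399 were uncalled values that stayed uncalled. All 18 lost calls were of IGFBP3. It lost its call in 7 of 21 settings in Hereford and in 11 of 21 for the difference between the breeds. With median centring, the members called numbered 0 for Hereford, 3 for Holstein-Friesian, 1 for the breeds together and 2 for the difference. The all-probe median then shifted to 0.10, -0.20, 0.0013 and 0.36. Signs turned for IGFBP6 in Hereford (0.061), for IGF2 (-0.24), IGFBP2 (0.40), IGFBP3 (-0.12) and IGFBP4 (-0.092) in Holstein-Friesian, for IGFBP2 in both together (0.11), and in the difference for IGF2 (0.83), IGF2R (0.39), IGFBP2 (-0.58) and IGFBP6 (0.95). In the same-dye comparison 0 members were called for the difference, and signs turned for IGFBP2 in Hereford (0.015), IGFBP4 in Holstein-Friesian (-0.017) and, in the difference, IGF2 (0.029) and IGFBP6 (0.22). With the arrays of 1 breed only, 0 were called for Hereford (IGFBP3 adjusted p of 0.0662 by limma). Leaving out 1 replicate or array gave 0 to 1 calls for Hereford and 0 to 1 for the difference. The cause of these shifts was not tested.

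With 1 replicate or array left out, log2 values that turned sign ranged from -0.12 to 0.48 for IGF2 (Hereford), -0.043 to 0.017 for IGFBP2 (Hereford), -0.013 to 0.20 for IGFBP4 (Holstein-Friesian), -0.54 to 0.23 for IGF2 (difference), -0.0092 to 0.057 for IGFBP2 (difference), -0.33 to 0.19 for IGFBP6 (difference).

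With the replicate number as a random block (replicate block, consensus correlation 0.305), the paired fit changed no member's call and ended those of SHC1 in Hereford (0.0542, random block) and GSK3B in the difference (0.0537, fixed block), both adjusted p by limma: IGFBP3 had a limma adjusted p of 0.0171 in Hereford and 0.00846 in the difference, and 0.034 in the difference with a fixed block. Probes called in the difference rose from 463 to 1714 with the random block and to 701 with the fixed block. For the breeds together they were 102 in the paired values, 910 with the random block and 1750 without a block. Probes called ranged from 27 to 1254 for Hereford, 78 to 6678 for Holstein-Friesian, 0 to 1750 for both together and 0 to 6219 for the difference. Averaging the probes of a gene was not run, since each member has 1. Signal near background limits IGFBP2.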
